A study of Mus musculus with 10 samples.

Results

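Bone marrow cells carrying the leukaemia fusion protein AML1/ETO were compared with cells carrying the empty vector, by array measurements of RNA in 6 of the 10 samples studied: 3 arrays of AML1/ETO-transduced cells and 3 of GFP-transduced cells, chosen by their titles. The levels of 18193 genes were compared. In every group, lineage-depleted, Sca1-selected marrow of C57BL/6 mice aged 5 to 6 weeks was grown with SCF and IL-3 at 10 ng/ml each and IL-6 at 20 ng/ml and transduced with the retroviral vector MigR1, again after 24 hours. Live GFP-positive cells that were lineage-negative, Sca1-positive and cKit-positive were sorted 48 hours after the second transduction, 25000 cells a sample. All groups therefore share the virus, the green fluorescent marker, the growth factors and the sort. In the GFP group the virus carried the marker alone, and in the AML1/ETO group the intact fusion as well, driven by the virus and not by its own chromosomal promoter. The remaining 4 arrays, labelled as cells with the fusion carrying the W692A substitution in its corepressor-binding MYND domain, are given beside the named genes and were tested directly against AML1/ETO. The labels describe independent transductions but do not say whether each came from other mice, so the p-values measure the spread between these samples.

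AML1, now called RUNX1, is a transcription factor that blood stem cells need to form and that binds DNA through its runt domain. The chromosome translocation of a common subtype of acute myeloid leukaemia joins that domain to nearly all of ETO (RUNX1T1), a protein that recruits the corepressors NCoR and SMRT with histone deacetylases. The fusion keeps the DNA-binding domain and is known as a repressor of RUNX1 target genes, a block to granulocyte maturation and a factor that lets progenitors renew themselves in culture.

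The probe sets for the fused genes were read first. Runx1 read 5.86, 5.9 and 5.81 (log2 intensity) with GFP and 6.86, 6.61 and 6.89 with AML1/ETO (log2 difference 0.93, adjusted p = 6.46e-05), and Runx1t1 was below the background bound with GFP at 1.03, 0.42 and 0.5 and read 3.13, 2.1 and 3.13 with AML1/ETO (log2 difference 2.14, adjusted p = 5.48e-06). The bound of 2.04 is the highest reading of probe sets for bacterial control transcripts. The 4 arrays labelled W692A read 7.04, 7.09, 6.67 and 6.93 for Runx1, all above the GFP arrays, but 0.86, 0.53, 0.55 and 0.59 for Runx1t1, all below the bound and overlapping GFP, although that fusion carries ETO too. All 6 probe sets of Runx1t1 were below the bound on those 4 arrays, while 3 of the 6 reached it on some AML1/ETO array. Runx1t1 thus went against the W692A label, and the 4 arrays are called the arrays labelled W692A throughout. Which part of the fusion each probe set reads was not tested. Over 8301 genes the correlation was 0.986 to 0.99 between arrays of one group and 0.887 to 0.907 between AML1/ETO and GFP arrays. Technical measures differed as well: the 18S ribosomal RNA signal was 7.74 to 8.13 with GFP and 8.18 to 8.65 with AML1/ETO, without overlap, and the 3′ minus 5′ difference of Gapdh, a measure of amplified fragment length, was 4.83 to 4.99 with GFP and 4.01, 4.08 and 5.04 with AML1/ETO, where replicate 3 gave the 5.04. With the 18S signal as a covariate 28 of 88 counts fell by more than 1.5 times, and with the Gapdh measure 15 did. These are counts of at least 6 genes called in one direction, and some are of lists whose counts are not given here. The 88 counts are of function lists that met the rule for description. Where one of them is given, the lowest such value stands with the list. Counts of marker lists and of lists not described at length were not among the 88. Of the sorted markers, Kit was below the bound on all 6 arrays and Sca1's gene was not analysed here. Whether its 2 probe sets detect the transcript was not tested. Of 23 stem and progenitor markers 15 were called higher, Kit among them although below the bound, and 3 fell. With dim values raised to the bound 13 rose, and with the 18S covariate 12. Markers of other cells went both ways: 3 rose and 7 fell of 20 for neutrophils, 6 and 6 of 22 for monocytes, 2 and 5 of 17 for erythroid cells, 6 and 9 of 20 for megakaryocytes, 7 and 3 of 19 for mast cells, basophils and eosinophils, 8 and 1 of 22 for stromal and endothelial cells, 2 and 2 of 19 for B cells and 1 and 4 of 18 for T and NK cells. With the 18S covariate 3 fell for neutrophils, and 3 rose and 3 fell for monocytes. With dim values raised to the bound 4 rose for stromal and endothelial cells. AML1/ETO replicate 3 had higher neutrophil markers (mean level 4.41, against 3.83 and 3.82) and mast cell, basophil and eosinophil markers (4.91, against 4.35 and 4.35) than the other two. In sorted bulk RNA, fewer cells of a type and less RNA per cell cannot be told apart, and the part of such cells in the results below was not tested.

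Genes fell more often than they rose with AML1/ETO, and the largest changes were rises. With limma and Benjamini-Hochberg adjustment at 0.05, 5207 of 18193 genes were called (28.6%), 2339 higher (12.9%) and 2868 lower (15.8%). The arrays of both groups did not overlap for 7109 genes (39.1%), and 5073 genes both were called and had no overlap (27.9%). Of the 8769 genes that averaged above the bound in some group, 52.6% were called, 22.7% higher and 29.9% lower, which is the background for lists of brightly expressed genes. Outside 454 genes of the interferon, cell cycle and lineage marker lists, 2215 genes rose and 2664 fell of 17739 (27.5% called). Rises and falls of at least 2-fold were about equal there, 679 and 653, but 175 rises and 55 falls reached 4-fold, 50 and 8 reached 8-fold, and 23 rises and 1 fall reached 16-fold. For these folds dim values were raised to the bound, so that a fold with "at least" is a lower limit. With the 18S signal as a covariate the calls fell to 3358, of which 3091 lay outside the lists. The lists left out moved strongly: 71 of 88 interferon response genes rose and 4 fell, and 161 of 188 cell cycle genes fell and 4 rose. The function lists below keep any member they share with the lists left out, and their counts include it. A count with no share beside it is to be read against the 12.9% higher and 15.8% lower of all genes.

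**Figure D1:**
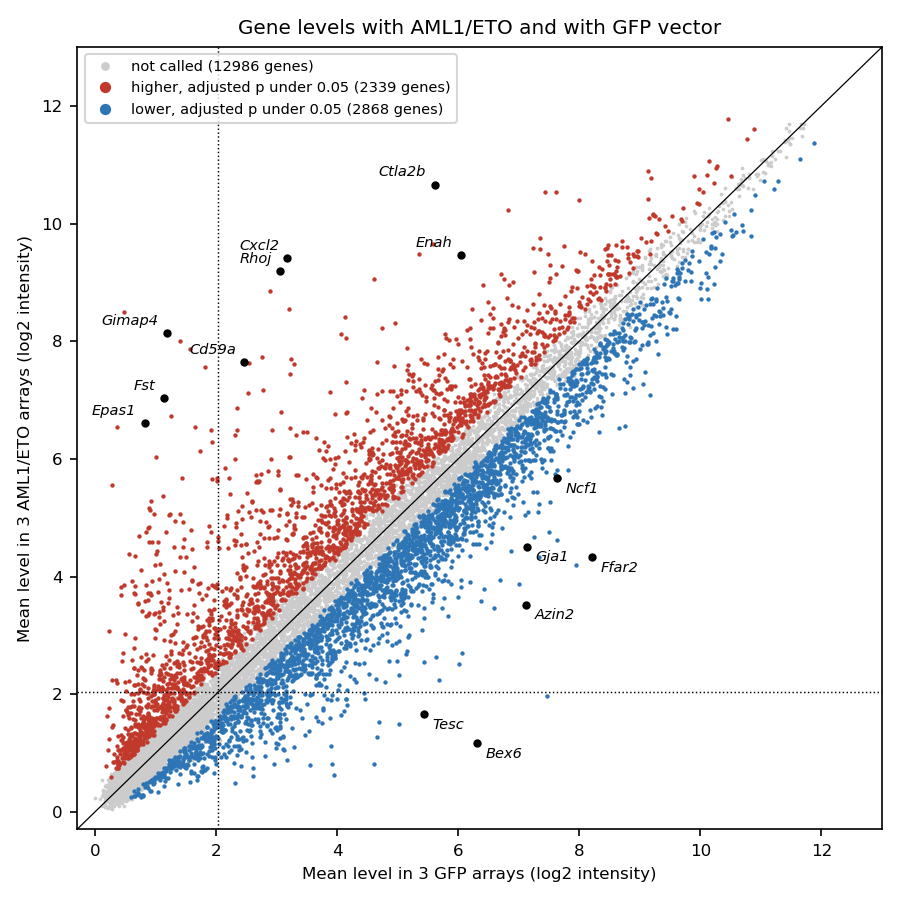
Mean level of each of 18193 genes on the 3 GFP arrays (x axis) against the 3 AML1/ETO arrays (y axis), both in log2 intensity, with genes called higher in red (2339), lower in blue (2868) and not called in grey. Dotted lines mark the background bound of 2.04 and black points some named genes. Above the diagonal, genes spread far from it at low GFP levels, and below it they lie in a narrower band.

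The 20 largest rises outside those lists ran from 17.9-fold to 75.4-fold. Genes of secreted and cell surface proteins were among them. The levels of Cd59a, a membrane protein that blocks the last step of complement attack on the cell's own surface, were 2.54, 2.42 and 2.45 with GFP and 7.63, 7.57 and 7.74 with AML1/ETO, a rise of 36.2-fold (log2 difference 5.18, SE 0.113, adjusted p = 7.55e-13). For Cd55, which dismantles complement convertases on the cell surface, the GFP arrays gave 3.76, 3.29 and 2.63 and the AML1/ETO arrays 7.21, 7.15 and 7.95, a rise of 18.5-fold (log2 difference 4.21, SE 0.251, adjusted p = 9.15e-09). C3ar1, the receptor of the complement fragment C3a, stood at 2.42, 2.44 and 2.14 in the GFP samples and 6.7, 6.35 and 6.44 in the AML1/ETO samples and was 17.9-fold higher (log2 difference 4.16, SE 0.151, adjusted p = 6.25e-11). The AML1/ETO arrays lay close together for Cd59a and C3ar1, and for Cd55 replicate 3 stood above the other AML1/ETO arrays. In all 3 genes they lay above every GFP array.

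Dab2, an adaptor of clathrin-mediated uptake, read 1.66, 1.76 and 2.31 with GFP and 6.95, 6.73 and 5.82 with AML1/ETO and was at least 20.7-fold higher (log2 difference 4.59, SE 0.241, adjusted p = 2.32e-09). The levels of Ntn4, a secreted netrin of basement membranes, were 3.11, 2.49 and 2.71 with GFP and 6.65, 7.05 and 7.81 with AML1/ETO, a rise of 21.1-fold (log2 difference 4.4, SE 0.242, adjusted p = 3.78e-09). For Csgalnact1, which starts chondroitin sulfate chains, the GFP arrays gave 2.9, 3.93 and 3.05 and the AML1/ETO arrays 7.6, 7.63 and 7.63, a rise of 20.1-fold (log2 difference 4.33, SE 0.205, adjusted p = 8.35e-10). Replicate 3 was the lowest AML1/ETO array for Dab2 and the highest for Ntn4, and for Csgalnact1 the AML1/ETO arrays were nearly equal while GFP replicate 2 stood above the other GFP arrays.

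Plod2, which hydroxylates lysines of collagen, stood at 2.49, 2.71 and 2.38 in the GFP samples and 7.37, 6.92 and 7.06 in the AML1/ETO samples and was 24.1-fold higher (log2 difference 4.59, SE 0.153, adjusted p = 2.87e-11). Phlda1, a small pleckstrin homology domain protein, read 2.29, 2.71 and 2.02 with GFP and 6.72, 6.5 and 7.38 with AML1/ETO and was at least 22.9-fold higher (log2 difference 4.52, SE 0.219, adjusted p = 1.08e-09). The levels of Sprr2d, a small proline-rich protein of cornified epithelium, were 2.4, 1.36 and 1.71 with GFP and 7.97, 7.59 and 7.13 with AML1/ETO, a rise of at least 42.3-fold (log2 difference 5.74, SE 0.445, adjusted p = 1.64e-07). All 3 were higher on every AML1/ETO array, and the GFP values of Phlda1 and Sprr2d straddled the bound. For Car8, a catalytically inactive member of the carbonic anhydrase family, the GFP arrays gave 1.28, 1.33 and 1.18 and the AML1/ETO arrays 6.33, 6.59 and 7.27, a rise of at least 25.8-fold (log2 difference 5.47, SE 0.213, adjusted p = 8.72e-11). Ctla2b, a cysteine protease inhibitor resembling a cathepsin propeptide, was already bright with GFP. Its levels were 5.5, 5.76 and 5.57 with GFP and 10.68, 10.76 and 10.53 with AML1/ETO, a rise of 33.1-fold (log2 difference 5.05, SE 0.125, adjusted p = 2.13e-12). Its neighbour in sequence Ctla2a was 17.6-fold higher (log2 difference 4.14, SE 0.139, adjusted p = 2.87e-11), and because the genes are near-identical copies their probe sets may share signal.

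The other 9 of the 20 were Cxcl2 (75.4-fold) and Cxcl3 (at least 62-fold), which attract neutrophils, the small GTPase Rhoj (69.9-fold), Gimap4 (at least 68.6-fold), the lymphatic growth factor Vegfc (62.2-fold), the gluconeogenic phosphatase Fbp1 (at least 56.4-fold), the activin-binding protein Fst (at least 31.8-fold), the hypoxia-inducible factor Epas1 (at least 23.7-fold) and the neuropeptide precursor Nts (at least 22.8-fold). For each the lowest AML1/ETO array was above the highest GFP array by more than 5 log2 units.

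The falls were smaller, from 5.45-fold to at least 19.3-fold, and the mean levels with GFP lay between 4.66 and 8.21. Cebpa, a transcription factor that granulocyte formation needs, stood at 5.11, 5.74 and 6.06 in the GFP samples and 2.34, 2.62 and 2.94 in the AML1/ETO samples and was 8.04-fold lower (log2 difference -3.01, SE 0.218, adjusted p = 7.95e-08). Cbfa2t3, known as ETO2, a corepressor of the same family as ETO, read 4.97, 4.82 and 4.59 with GFP and 2.33, 2.07 and 2.21 with AML1/ETO and was 6.01-fold lower (log2 difference -2.59, SE 0.142, adjusted p = 3.75e-09). The levels of Itgb2, the beta chain of the leukocyte integrins, were 6.45, 6.17 and 6.64 with GFP and 3.46, 3.31 and 4.59 with AML1/ETO, a fall of 6.19-fold (log2 difference -2.63, SE 0.247, adjusted p = 1.01e-06). AML1/ETO replicate 3 was the highest of the 3 for Itgb2 and Cebpa, and still below every GFP array.

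For Il1r1, the signalling receptor of interleukin 1, the GFP arrays gave 6.92, 6.47 and 6.68 and the AML1/ETO arrays 4.18, 3.91 and 3.73, a fall of 6.71-fold (log2 difference -2.75, SE 0.154, adjusted p = 4.74e-09). Pim2, a survival kinase, stood at 4.88, 4.43 and 4.77 in the GFP samples and 1.58, 1.2 and 1.81 in the AML1/ETO samples and was at least 6.28-fold lower (log2 difference -3.16, SE 0.168, adjusted p = 2.78e-09). Gja1, the gap junction protein connexin 43, read 7.08, 7.59 and 6.72 with GFP and 4.74, 4.17 and 4.62 with AML1/ETO and was 6.13-fold lower (log2 difference -2.62, SE 0.223, adjusted p = 4.25e-07). All 3 AML1/ETO values of Pim2 were below the bound, so its level there is known only as an upper limit.

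The levels of Cd96, an immunoglobulin-family adhesion receptor, were 7.43, 7.07 and 7.26 with GFP and 4.85, 4.59 and 4.56 with AML1/ETO, a fall of 6.01-fold (log2 difference -2.59, SE 0.135, adjusted p = 2.25e-09). For Ptpn3, a tyrosine phosphatase, the GFP arrays gave 6.64, 6.64 and 6.48 and the AML1/ETO arrays 3.38, 3.57 and 3.43, a fall of 8.73-fold (log2 difference -3.13, SE 0.125, adjusted p = 1.17e-10). Gpr171, a G protein-coupled receptor, stood at 6.78, 6.93 and 6.92 in the GFP samples and 4.79, 4.46 and 4.04 in the AML1/ETO samples and was 5.45-fold lower (log2 difference -2.45, SE 0.167, adjusted p = 4.05e-08). No array of one group reached the range of the other for these genes. Khdc1a, at 4.74, 4.58 and 4.67 with GFP and 1.3, 1.13 and 1.42 with AML1/ETO, was at least 6.15-fold lower (log2 difference -3.38, SE 0.17, adjusted p = 1.67e-09). Hfe, the regulator of iron uptake mutated in haemochromatosis, read 5.11, 5.01 and 5.31 with GFP and 2.51, 2.62 and 2.92 with AML1/ETO and was 5.5-fold lower (log2 difference -2.46, SE 0.228, adjusted p = 9.14e-07). The levels of Arsb, a lysosomal sulfatase of dermatan and chondroitin sulfate, were 5.89, 5.62 and 6.01 with GFP and 2.63, 3.3 and 4.06 with AML1/ETO, a fall of 5.67-fold (log2 difference -2.5, SE 0.25, adjusted p = 1.94e-06). For Tuba8, a minor alpha tubulin, the GFP arrays gave 4.98, 5.08 and 4.99 and the AML1/ETO arrays 1.88, 1.7 and 3.4, a fall of at least 5.76-fold (log2 difference -2.69, SE 0.347, adjusted p = 2.44e-05). The AML1/ETO arrays spread widely for Arsb and Tuba8, with replicate 3 highest.

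The remaining falls were Bex6 (at least 19.3-fold), the short-chain fatty acid receptor Ffar2 (14.7-fold), the antizyme inhibitor Azin2 (12.1-fold), the adaptor Sh2d5 (at least 10.7-fold), the calcium-binding protein Tesc (at least 10.4-fold), the copper-carrying ferroxidase Cp (at least 10.3-fold) and the formin Inf2 (at least 7.87-fold). Of the 40 genes, 24 had other probe sets on the array. Of these 44 probe sets 35 were called in the same direction, none was called in the opposite direction and 9 were not called. Agreement was lower over all 330 genes that met the naming rule. There 210 genes had 415 other probe sets: 207 were called in the same direction, 3 in the opposite one and 205 were not called. Fkbp4, Abca1, Cald1, Zfp36l2 and Cd82, given below, are among the genes with no other probe set called.

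**Figure D2:**
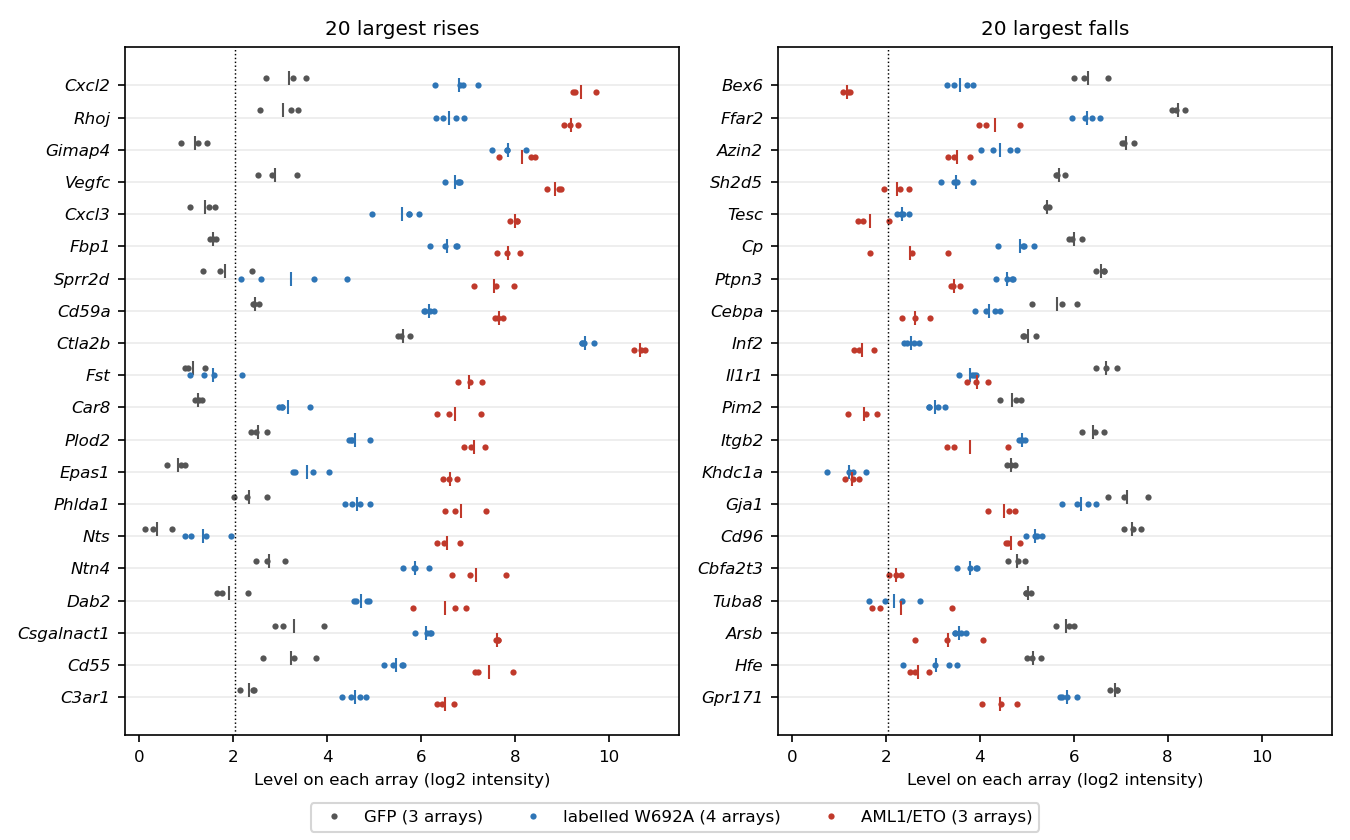
Level of the 20 largest rises and 20 largest falls on each array (log2 intensity): GFP in grey (3 arrays), labelled W692A in blue (4), AML1/ETO in red (3), with a tick at each group mean and a dotted line at the background bound of 2.04. AML1/ETO and GFP arrays do not overlap for any of the 40 genes, and the arrays labelled W692A mostly lie between them.

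The 40 genes were also tested between the AML1/ETO arrays and the arrays labelled W692A. This comparison shares the AML1/ETO arrays with the one that chose the genes. Over all genes 3765 were called (20.7%), 2017 higher with AML1/ETO (11.1%) and 1748 lower (9.61%). Of the 40, 34 were called, each with the AML1/ETO mean farther from GFP than that of the arrays labelled W692A. Any direction drawn from this comparison rests on the W692A label, which the Runx1t1 probe sets did not bear out. For Fst the arrays labelled W692A had a mean of 1.56 ± 0.462 (SD, n = 4), and AML1/ETO minus labelled W692A was 5.47, adjusted p = 7.27e-10. For Nts their mean was 1.36 ± 0.443 (SD, n = 4) and the difference 5.19, adjusted p = 7.55e-10. It was below the bound for both. The 6 not called were Gimap4 (0.29, adjusted p = 0.391), Il1r1 (0.15, adjusted p = 0.586), Khdc1a (0.07, adjusted p = 0.841), Tuba8 (0.15, adjusted p = 0.835), Arsb (-0.23, adjusted p = 0.6) and Hfe (-0.39, adjusted p = 0.258), and for these a difference between the 2 sets of arrays was not detected, which does not show that they are alike.

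The runt domain binds DNA at the letters TGTGGT, so the 250 bases before each start site (RefSeq, GRCm38.p6) were searched for them on both strands. A promoter was found for 14368 genes, with 18009 windows. The letters were in 11.7% of all windows, in 10.4% of those of genes that rose and 11.6% of those that fell. Among the 20 largest rises 2 of 15 windows held them (13.3%), and among the 20 largest falls 2 of 22 (9.09%). One gene with a match is shown from each set to let the sequence be seen beside its values: Cd59a, which has 2 matches (chr2:104095551-104095800, plus strand), and Bex6, which has 1 (chr16:32179550-32179799, plus strand). Capitals mark the match on either strand. A match is a description of these letters and not a binding site.
Cd59a: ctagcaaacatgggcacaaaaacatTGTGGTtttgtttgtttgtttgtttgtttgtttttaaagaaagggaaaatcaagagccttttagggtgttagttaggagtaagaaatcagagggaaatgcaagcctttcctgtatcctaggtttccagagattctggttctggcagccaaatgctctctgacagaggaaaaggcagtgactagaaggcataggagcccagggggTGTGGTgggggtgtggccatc
Bex6: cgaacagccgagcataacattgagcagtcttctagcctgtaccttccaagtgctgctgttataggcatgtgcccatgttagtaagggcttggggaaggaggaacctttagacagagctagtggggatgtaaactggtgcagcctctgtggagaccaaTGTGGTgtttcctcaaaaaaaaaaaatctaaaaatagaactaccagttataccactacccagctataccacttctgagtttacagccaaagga

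Most genes that build ribosomes fell. Ribosome biogenesis in the nucleolus makes, modifies and assembles ribosomal RNA with proteins, and it scales with growth. Of 78 measured genes 70 fell (89.7%, against 15.8% of all genes and 29.9% of genes above the bound), none rose and 8 were not called, with a median log2 difference of -0.895. The list mean was 6.14, 6.02 and 6.06 on the GFP arrays and 5.15, 5.07 and 5.22 on the AML1/ETO arrays, with 5.91, 5.87, 5.82 and 5.81 on the arrays labelled W692A. The AML1/ETO arrays were therefore about 1 log2 unit lower and did not overlap the GFP arrays. Nat10, which acetylates ribosomal RNA, stood at 6.56, 5.89 and 6.43 in the GFP samples and 4.53, 4.46 and 4.66 in the AML1/ETO samples and was 3.34-fold lower (log2 difference -1.74, SE 0.166, adjusted p = 1.19e-06). Gnl3, nucleostemin, read 9.0, 8.67 and 8.59 with GFP and 7.1, 7.01 and 7.26 with AML1/ETO and was 3.09-fold lower (log2 difference -1.63, SE 0.14, adjusted p = 4.48e-07). The levels of Ltv1, an assembly factor of the small subunit, were 4.47, 4.53 and 4.47 with GFP and 2.91, 2.66 and 3.25 with AML1/ETO, a fall of 2.93-fold (log2 difference -1.55, SE 0.21, adjusted p = 3.95e-05). Each differed from the arrays labelled W692A too (adjusted p = 4.04e-05, 9.18e-05 and 9.16e-04).

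Within the list all 7 Utp genes of the small-subunit processome fell (log2 differences from -1.47 to -0.52), as did all 3 core proteins of the box C/D particles that methylate ribosomal RNA (from -1.34 to -1.08), all 4 of the box H/ACA particles that make pseudouridine (from -1.48 to -0.9) and all 3 of the PeBoW complex of the large subunit (from -1.35 to -1.09). Of the 7 nucleolar DEAD-box helicases 6 fell. Of 5 RNA polymerase I subunits 2 were called lower, Polr1b and Polr1e. Of 47 cytosolic ribosomal protein genes 4 fell, none rose and 43 were not called, with a list mean of 8.62 to 8.63 with GFP and 8.48 to 8.6 with AML1/ETO. That share, 8.5%, is below the 15.8% of all genes. In each list or family said here to have no rise, at most 1 member was higher at an unadjusted p under 0.05 in limma's fit, and in each with no fall at most 2 were lower.

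Most aminoacyl-tRNA synthetase and nuclear transport genes also fell. The aminoacyl-tRNA synthetase list holds enzymes that load amino acids onto transfer RNA and the accessory proteins Aimp1, Aimp2 and Eef1e1. Of its 36 genes 25 fell and none rose (median log2 difference -0.664), 16 of 20 cytosolic and 9 of 16 mitochondrial ones. Aimp1, Aimp2 and Eef1e1 fell and are counted as cytosolic. The lowest difference was that of the mitochondrial arginyl enzyme Rars2 (2.92-fold lower), followed by the glycyl enzyme Gars (2.48-fold) and the leucyl enzyme Lars (2.41-fold). Rars2 read 7.77, 7.27 and 7.55 with GFP and 6.11, 6.02 and 5.82 with AML1/ETO (log2 difference -1.55, SE 0.158, adjusted p = 2.39e-06). Both groups were bright and did not overlap. Of 56 translation factor genes 27 fell and 3 rose. The exchange factor eIF2B, which reloads the initiator with GTP, was split: 4 of its 5 subunits fell, Eif2b3 by 2.74-fold, Eif2b1 by 2.27-fold and Eif2b4 by 2.24-fold, while Eif2b2 rose 1.76-fold. Eif2b2 read 8.12, 7.99 and 8.26 with GFP and 8.8, 9.03 and 8.98 with AML1/ETO (log2 difference 0.82, SE 0.149, adjusted p = 5.69e-04). Its AML1/ETO arrays were all above its GFP arrays. Of the 11 subunits of eIF3 5 fell and none rose.

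Of 56 nuclear transport genes 34 fell and none rose (60.7%), among them 21 of 25 nucleoporins, the building blocks of the nuclear pore, and 10 of 23 importins and exportins. For Ndc1, which anchors the pore in the membrane, the GFP arrays gave 5.18, 4.43 and 4.3 and the AML1/ETO arrays 2.07, 2.22 and 2.49, a fall of 5.19-fold (log2 difference -2.38, SE 0.205, adjusted p = 4.69e-07). Ipo5, an importin that carries ribosomal proteins, stood at 7.21, 7.19 and 6.79 in the GFP samples and 5.58, 5.48 and 5.79 in the AML1/ETO samples and was 2.73-fold lower (log2 difference -1.45, SE 0.149, adjusted p = 2.54e-06). Nup85, of the pore's outer ring, was 2.58-fold lower (log2 difference -1.37, SE 0.206, adjusted p = 1.04e-04). The list mean was 6.01, 5.92 and 5.88 with GFP and 5.26, 5.23 and 5.38 with AML1/ETO, without overlap.

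Mitochondrial genes were divided by function. The machinery that makes proteins in mitochondria fell, with 45 of 83 genes lower and 1 higher (median log2 difference -0.416), as did import and chaperones, with 28 of 48 lower and 1 higher. With the 18S covariate these were 29 and 17 lower. Timm8a1, a carrier of the intermembrane space, read 9.05, 9.38 and 9.4 with GFP and 7.89, 7.98 and 8.13 with AML1/ETO and was 2.42-fold lower (log2 difference -1.27, SE 0.126, adjusted p = 1.69e-06). The levels of Clpp, the matrix protease, were 6.7, 6.53 and 6.72 with GFP and 5.34, 5.41 and 5.42 with AML1/ETO, a fall of 2.4-fold (log2 difference -1.26, SE 0.13, adjusted p = 2.75e-06). For Gfm1, an elongation factor of mitochondrial translation, the GFP arrays gave 7.9, 7.48 and 7.66 and the AML1/ETO arrays 6.5, 6.52 and 6.38, a fall of 2.31-fold (log2 difference -1.21, SE 0.127, adjusted p = 3.13e-06). Of 90 genes of oxidative phosphorylation 20 fell and 5 rose, a share near that of all genes and below that of genes above the bound. With the 18S covariate 10 of the 90 fell. None of the 16 complex IV genes fell and Cox7a1 rose, and of 17 ATP synthase genes 2 fell (Atp5a1 and Atp5g1). Of the citric acid cycle and pyruvate dehydrogenase list 15 of 33 fell and 4 rose. Fumarase, Fh1, was 1.93-fold lower (log2 difference -0.95, SE 0.115, adjusted p = 1.30e-05), and the succinyl-CoA ligase subunit Suclg2 was 2.1-fold lower (log2 difference -1.07, SE 0.107, adjusted p = 1.93e-06). The ketoglutarate-producing subunit Idh3a was 2.47-fold lower (log2 difference -1.31, SE 0.146, adjusted p = 5.72e-06), but another of its probe sets was called in the opposite direction, so its direction is uncertain.

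Most genes of nucleotide synthesis fell. Of 40 purine and pyrimidine genes 22 fell and 7 rose (median -0.565), and 4 rose with dim values raised to the bound. In the de novo purine pathway 8 of 10 fell and in the de novo pyrimidine pathway 4 of 5. Gart, which catalyses several steps of the pathway, stood at 6.92, 6.93 and 6.88 in the GFP samples and 5.17, 5.28 and 5.2 in the AML1/ETO samples and was 3.23-fold lower (log2 difference -1.69, SE 0.135, adjusted p = 2.08e-07). Ppat, the committed step, read 5.11, 5.12 and 5.19 with GFP and 3.28, 3.24 and 3.7 with AML1/ETO and was 3.33-fold lower (log2 difference -1.73, SE 0.149, adjusted p = 4.54e-07). The levels of Umps, the last steps to UMP, were 7.4, 7.12 and 7.16 with GFP and 5.32, 5.38 and 5.61 with AML1/ETO, a fall of 3.46-fold (log2 difference -1.79, SE 0.136, adjusted p = 1.35e-07). The groups were far apart in all 3. Among the 7 that rose were enzymes of salvage and breakdown. For Upp1, uridine phosphorylase, which breaks uridine down, the GFP arrays gave 1.98, 1.92 and 2.15 and the AML1/ETO arrays 5.98, 5.94 and 4.95, a rise of at least 11.7-fold (log2 difference 3.61, SE 0.226, adjusted p = 1.56e-08). Impdh1, of guanine nucleotide synthesis, rose 1.69-fold (log2 difference 0.75, SE 0.141, adjusted p = 7.01e-04), and purine nucleoside phosphorylase, Pnp, 1.43-fold (log2 difference 0.51, SE 0.115, adjusted p = 0.0028).

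The folate and pentose phosphate pathways that feed nucleotide synthesis had 12 of 24 genes lower and 1 higher. Shmt1, which takes the carbon unit from serine, stood at 7.68, 7.5 and 7.82 in the GFP samples and 5.38, 5.81 and 5.83 in the AML1/ETO samples and was 3.98-fold lower (log2 difference -1.99, SE 0.155, adjusted p = 1.69e-07). Mthfd1, the trifunctional folate enzyme, read 9.21, 9.01 and 9.06 with GFP and 7.38, 7.43 and 7.62 with AML1/ETO and was 3.06-fold lower (log2 difference -1.62, SE 0.132, adjusted p = 2.69e-07). Rpia, which makes ribose phosphate, was 2.96-fold lower (log2 difference -1.57, SE 0.228, adjusted p = 7.45e-05). In all 3 the mean of the arrays labelled W692A lay nearer to GFP, and AML1/ETO differed from them (adjusted p = 9.97e-06, 2.68e-05 and 0.00603). Of 40 amino acid metabolism genes 13 fell and 4 rose, and 8 fell with the 18S covariate. The levels of Asns, asparagine synthetase, were 9.07, 8.89 and 8.71 with GFP and 7.24, 7.2 and 7.2 with AML1/ETO, a fall of 3.2-fold (log2 difference -1.68, SE 0.145, adjusted p = 4.78e-07). For Prodh, proline dehydrogenase, the GFP arrays gave 5.52, 5.42 and 5.8 and the AML1/ETO arrays 3.4, 3.8 and 3.9, a fall of 3.67-fold (log2 difference -1.88, SE 0.169, adjusted p = 7.00e-07). Glul, glutamine synthetase, went the other way and rose 2.12-fold (log2 difference 1.08, SE 0.117, adjusted p = 4.39e-06).

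Genes of protein folding in the cytosol moved both ways. Of the 8 subunits of the CCT chaperonin, which folds actin and tubulin, 7 fell and none rose (log2 differences from -0.83 to -0.27). Of 42 cytosolic chaperone genes in all 16 fell and 7 rose, and 4 rose with the 18S covariate or with dim values raised to the bound. The 7 include Dnajb9, a protein of the endoplasmic reticulum. Fkbp4, a co-chaperone of steroid receptors with Hsp90, stood at 6.18, 6.14 and 6.29 in the GFP samples and 4.38, 4.4 and 4.26 in the AML1/ETO samples and was 3.62-fold lower (log2 difference -1.86, SE 0.153, adjusted p = 3.02e-07). Ahsa1, which activates Hsp90, was 2.24-fold lower (log2 difference -1.16, SE 0.138, adjusted p = 1.07e-05), and Fkbp5 2.21-fold lower (log2 difference -1.15, SE 0.124, adjusted p = 4.26e-06). Hspa1b, a heat-inducible Hsp70, read 1.94, 2.07 and 2.02 with GFP and 5.79, 5.83 and 5.4 with AML1/ETO and was at least 12.3-fold higher (log2 difference 3.66, SE 0.152, adjusted p = 1.78e-10). Dnajb4 read 5.73, 5.77 and 5.53 with GFP and 7.58, 7.53 and 7.48 with AML1/ETO (log2 difference 1.86, SE 0.126, adjusted p = 3.65e-08), a rise of 3.63-fold in an Hsp40 partner of Hsp70. The mean of Hspa1b on the arrays labelled W692A was 2.24 ± 0.227 (SD, n = 4), and AML1/ETO minus labelled W692A was 3.43, adjusted p = 7.98e-10. The proteasome's subunits split by part: none of 16 core particle genes was called by limma, and none had an unadjusted p under 0.05 (log2 differences from -0.27 to 0.26), 8 of 18 genes of the 19S cap fell, and the 3 called of 4 assembly factors, Psmg1 (2.58-fold lower), Psmg2 (1.78-fold) and Psmg3 (1.77-fold), fell. Over all 41 proteasome genes 13 fell, but 8 without AML1/ETO replicate 2, without AML1/ETO replicate 3 or without GFP replicate 1, and 6 with the 18S covariate.

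**Figure D3:**
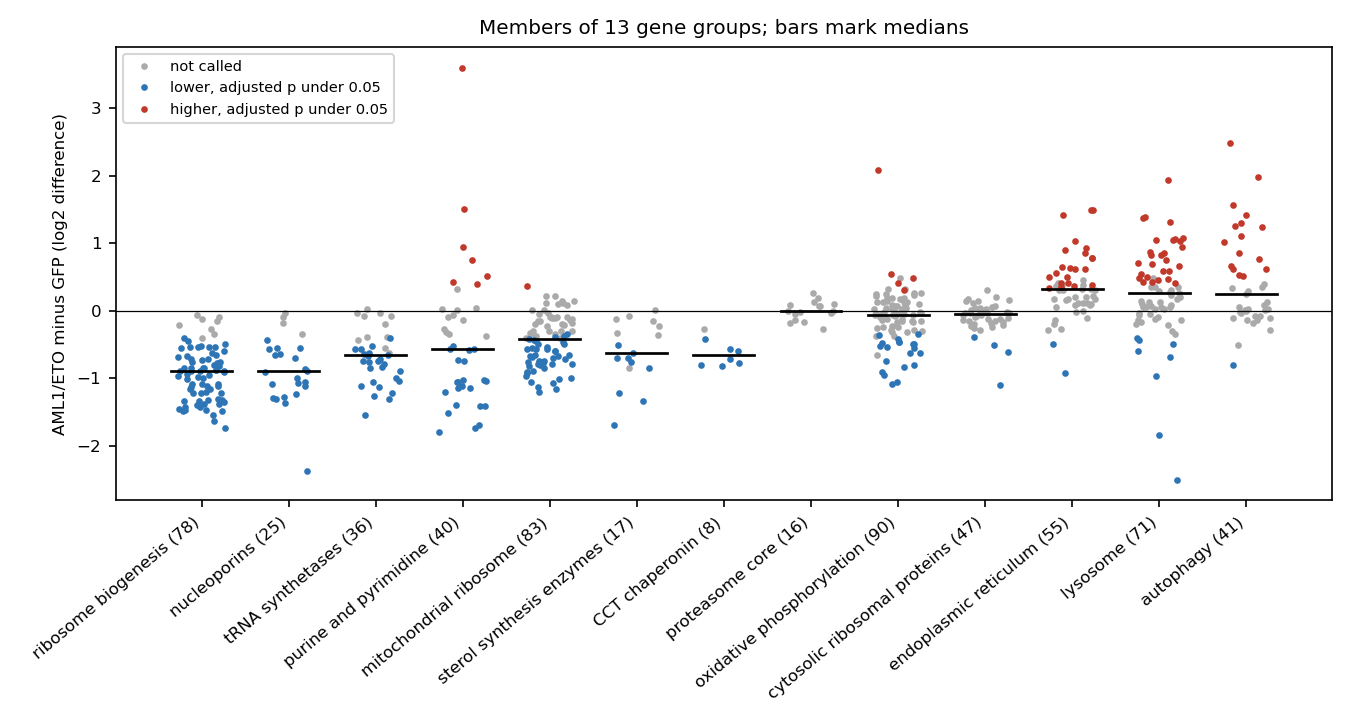
Log2 difference, AML1/ETO minus GFP, of every measured member of 13 gene groups (y axis; points spread sideways for visibility), with members called higher in red, lower in blue and not called in grey, a bar at each median and the number of members in parentheses. The 78 ribosome biogenesis genes lie below 0, the cytosolic ribosomal proteins and proteasome core lie around 0, and endoplasmic reticulum, lysosome and autophagy genes lie mostly above it.

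Genes of the secretory pathway rose more often than they fell. Of 55 genes for folding in the endoplasmic reticulum, translocation and coat proteins 22 rose (40.0%, against 12.9% of all genes and 22.7% of genes above the bound), 2 fell and 31 were not called. The list mean was 6.48, 6.41 and 6.45 with GFP, 6.8, 6.73 and 6.85 with AML1/ETO and 6.35 to 6.47 on the arrays labelled W692A. The levels of Ern1, the IRE1 sensor of unfolded proteins, were 5.63, 5.81 and 5.44 with GFP and 7.02, 7.02 and 7.32 with AML1/ETO, a rise of 2.81-fold (log2 difference 1.49, SE 0.137, adjusted p = 8.57e-07). For Edem1, which sends misfolded glycoproteins to degradation, the GFP arrays gave 5.75, 5.65 and 5.71 and the AML1/ETO arrays 7.17, 6.96 and 7.25, a rise of 2.67-fold (log2 difference 1.42, SE 0.12, adjusted p = 4.00e-07). Sec23a, of the COPII coat that buds from the endoplasmic reticulum, stood at 4.63, 4.67 and 4.27 in the GFP samples and 6.24, 5.94 and 5.86 in the AML1/ETO samples and was 2.81-fold higher (log2 difference 1.49, SE 0.224, adjusted p = 1.02e-04). The cofactor Dnajb9 of the lumenal Hsp70 rose 3.18-fold (log2 difference 1.67, SE 0.218, adjusted p = 2.73e-05). It is not among the 55 and was counted in the cytosolic chaperone list. Of the lumenal folding proteins Hspa5, Hsp90b1, Calr, Canx, Pdia3, Pdia4 and Pdia6 were not called, while P4hb and Pdia5 rose. Of the COPII coat 4 of 10 rose (Sec23a, Sec23b, Sec24a and Sec24d) and of the translocation genes 6 of 12 rose, while Srp68 of the signal recognition particle fell 1.9-fold. With the 18S covariate 11 of the 55 rose. For Ern1 and Edem1 the means of the arrays labelled W692A, 5.58 ± 0.133 (SD, n = 4) and 5.71 ± 0.115 (SD, n = 4), were near the GFP level, and AML1/ETO was higher than they were (adjusted p = 8.27e-07 and 5.26e-07).

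Of 71 lysosome and proton pump genes 28 rose (39.4%) and 8 fell, and 4 fell with the Gapdh covariate. Ctsl, the protease cathepsin L, read 4.79, 4.91 and 5.08 with GFP and 6.98, 6.64 and 6.99 with AML1/ETO and was 3.84-fold higher (log2 difference 1.94, SE 0.24, adjusted p = 1.63e-05). The levels of Ppt1, which removes palmitate from proteins, were 7.33, 7.15 and 7.23 with GFP and 8.61, 8.59 and 8.69 with AML1/ETO, a rise of 2.63-fold (log2 difference 1.4, SE 0.109, adjusted p = 1.79e-07). Mitf, a transcription factor of mast cells and pigment cells, was 2.61-fold higher (log2 difference 1.38, SE 0.131, adjusted p = 1.16e-06). Falls included cathepsin H, Ctsh, 3.58-fold lower (log2 difference -1.84, SE 0.142, adjusted p = 1.54e-07), and the sulfatase Arsb described above. Of 22 proton pump genes, whose pump acidifies the lysosome, 6 rose and none fell (log2 differences from -0.21 to 1.06), and of 13 cathepsins 5 rose and 3 fell. The E-box CACGTG, the core of the element to which MITF and its relatives TFEB and TFE3 bind, was searched on both strands in the same windows. It was in 7.39% of all windows, in 8.79% of those of genes above the bound and in 16 of 70 windows of the lysosome list (22.9%). That share covers the whole list and was not divided by whether a gene rose, and a part of these factors in the rises was not tested. Lists that fell gave both lower and higher shares: 6.41% in the ribosome biogenesis list (5 of 78 windows), 6.9% for aminoacyl-tRNA synthetases (2 of 29) and 14.3% in the nuclear transport list (8 of 56). It was also in 4 of 22 windows of the 20 largest falls (18.2%), 1 of 15 of the 20 largest rises (6.67%) and 5 of 49 of cytosolic ribosomal protein genes (10.2%). The letters TGTGGT searched above were in 13 of the 70 lysosome windows (18.6%, against 11.7% of all). The 4 lysosome genes below rose and have 2 matches each, in capitals, and are shown because the letters recur within 1 promoter: Cln3 (chr7:126583237-126583486, minus strand), Ctsd (chr7:142387828-142388077, minus strand), Gla (chrX:134601006-134601255, minus strand) and Mcoln1 (chr8:3500269-3500518, plus strand), all 5′ to 3′ on the gene's strand. They encode a lysosomal membrane protein, cathepsin D, alpha-galactosidase A and a lysosomal cation channel. Their log2 differences were 0.45 for Cln3 (adjusted p = 0.0452), 0.83 for Ctsd (7.20e-05), 0.94 for Gla (8.64e-06) and 0.66 for Mcoln1 (8.48e-04). These 4 were chosen after their values were seen.
Cln3: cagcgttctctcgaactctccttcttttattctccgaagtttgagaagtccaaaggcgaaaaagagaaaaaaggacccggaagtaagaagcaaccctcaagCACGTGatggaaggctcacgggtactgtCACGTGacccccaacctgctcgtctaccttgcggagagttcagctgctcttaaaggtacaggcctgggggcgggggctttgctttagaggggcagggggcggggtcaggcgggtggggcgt
Ctsd: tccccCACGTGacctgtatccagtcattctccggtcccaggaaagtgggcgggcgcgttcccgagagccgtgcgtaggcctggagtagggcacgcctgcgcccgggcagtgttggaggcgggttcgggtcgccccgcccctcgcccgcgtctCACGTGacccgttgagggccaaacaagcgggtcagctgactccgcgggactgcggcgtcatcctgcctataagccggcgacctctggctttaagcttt
Gla: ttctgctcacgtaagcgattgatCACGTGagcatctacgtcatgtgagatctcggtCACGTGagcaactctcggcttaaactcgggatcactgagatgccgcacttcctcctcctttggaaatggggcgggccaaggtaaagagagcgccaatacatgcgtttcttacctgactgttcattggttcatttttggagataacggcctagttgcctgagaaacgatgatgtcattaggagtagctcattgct
Mcoln1: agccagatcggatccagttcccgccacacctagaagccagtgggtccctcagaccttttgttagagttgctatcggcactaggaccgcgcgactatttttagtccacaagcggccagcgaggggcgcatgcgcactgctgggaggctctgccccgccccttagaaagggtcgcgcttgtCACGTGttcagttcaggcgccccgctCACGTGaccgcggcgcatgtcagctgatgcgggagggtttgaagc

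Autophagy genes, whose products enclose cell contents for delivery to the lysosome, had 16 of 41 members higher (39.0%) and 1 lower. For Wipi1, which binds the forming autophagosome, the GFP arrays gave 4.11, 3.71 and 3.54 and the AML1/ETO arrays 6.43, 6.38 and 6.01, a rise of 5.61-fold (log2 difference 2.49, SE 0.164, adjusted p = 2.76e-08). Bnip3, a mitophagy receptor, stood at 6.34, 6.5 and 6.28 in the GFP samples and 8.29, 8.11 and 8.68 in the AML1/ETO samples and was 3.96-fold higher (log2 difference 1.98, SE 0.163, adjusted p = 2.99e-07). Pink1, the kinase that marks damaged mitochondria, read 5.6, 5.84 and 5.36 with GFP and 7.16, 7.31 and 7.03 with AML1/ETO and was 2.96-fold higher (log2 difference 1.57, SE 0.136, adjusted p = 4.93e-07). The groups did not overlap in these 3, and AML1/ETO exceeded the arrays labelled W692A in each (adjusted p = 7.40e-06, 3.99e-04 and 1.30e-04). Vesicle traffic was less one-sided. Of 204 Rab, SNARE and sorting genes 49 rose (24.0%) and 28 fell (13.7%), against 12.9% and 15.8% of all genes. With the 18S covariate 28 rose and 14 fell. Of the 204, 150 had a group mean above the bound, where 22.7% of genes rose and 29.9% fell. The levels of Rab4a, a GTPase of fast recycling, were 3.47, 3.96 and 3.7 with GFP and 6.07, 6.18 and 6.19 with AML1/ETO, a rise of 5.41-fold (log2 difference 2.44, SE 0.172, adjusted p = 6.11e-08). Stx2 rose 4.06-fold (log2 difference 2.02, SE 0.149, adjusted p = 9.61e-08) and Snap23 3.92-fold (log2 difference 1.97, SE 0.196, adjusted p = 1.86e-06), both of the fusion machinery at the plasma membrane, and of 26 SNARE genes 11 rose and 3 fell. Rab27a, of granule release, was at least 3.35-fold lower (log2 difference -1.94, SE 0.321, adjusted p = 2.42e-04).

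**Figure D4:**
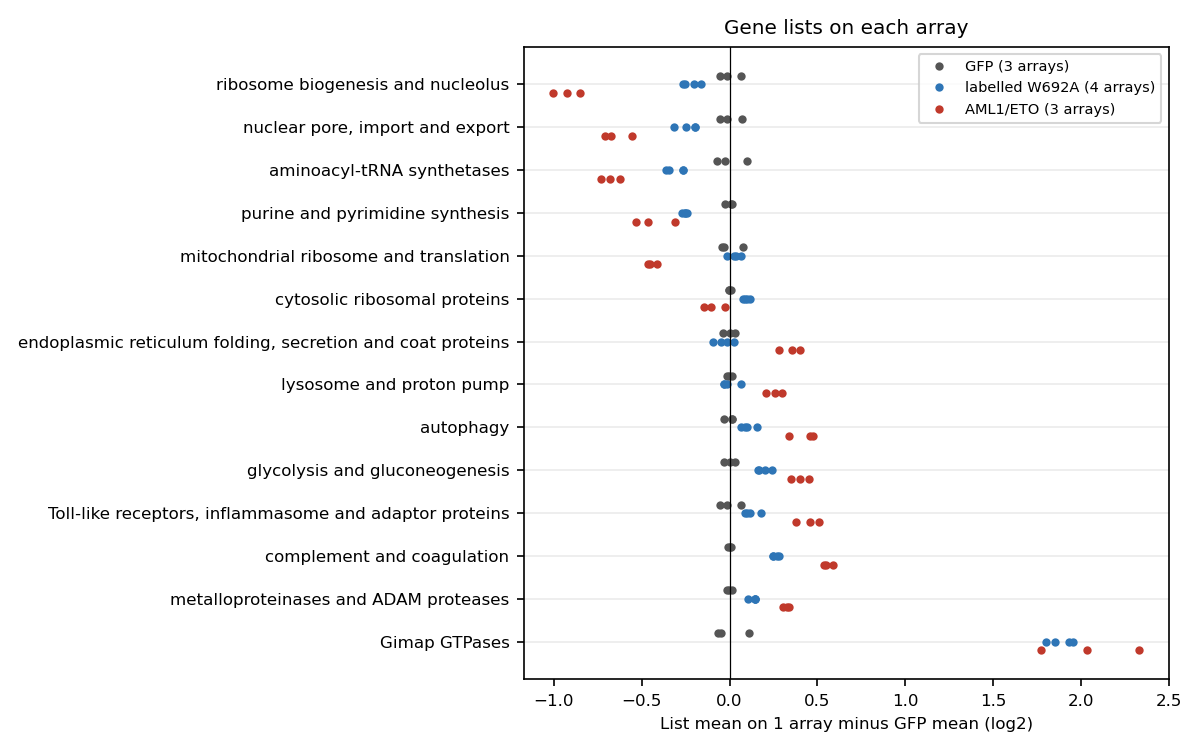
Mean level over the measured members of 14 gene lists on each array, minus the mean of the 3 GFP arrays (x axis, log2): GFP in grey, labelled W692A in blue (4 arrays) and AML1/ETO in red (3). AML1/ETO arrays lie apart from GFP arrays in every list shown. The arrays labelled W692A lie with GFP for the endoplasmic reticulum list and with AML1/ETO for the Gimap list.

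Splicing and RNA polymerase II genes fell in a share near that of other bright genes, and rarely rose. Of 96 splicing and RNA processing genes 33 fell (34.4%) and 2 rose (2.1%), with 16 lower in the fit with the Gapdh covariate. Of 88 genes of the RNA polymerase II machinery 28 fell (31.8%) and 2 rose (2.3%). Of genes above the bound 29.9% fell and 22.7% rose. For Srsf6, a splicing regulator, the GFP arrays gave 7.19, 6.91 and 7.13 and the AML1/ETO arrays 5.88, 5.56 and 5.63, a fall of 2.61-fold (log2 difference -1.38, SE 0.149, adjusted p = 4.14e-06). Taf5, a subunit of TFIID, was 2.3-fold lower (log2 difference -1.2, SE 0.168, adjusted p = 5.38e-05), and Med14, of Mediator, 2.37-fold lower (log2 difference -1.24, SE 0.21, adjusted p = 2.90e-04). Of 71 histone acetylation and methylation enzymes 15 rose and 23 fell. The protein arginine methyltransferases split into 5 lower, 1 higher and 1 not called. Prmt7 read 5.85, 5.73 and 5.92 with GFP and 3.74, 3.97 and 4.06 with AML1/ETO (log2 difference -1.91, SE 0.148, adjusted p = 1.59e-07), a fall of 3.76-fold. Prmt2 read 5.14, 5.18 and 5.2 with GFP and 7.56, 7.23 and 7.22 with AML1/ETO (log2 difference 2.17, SE 0.122, adjusted p = 4.81e-09), a rise of 4.49-fold. Prmt5 was 2.48-fold lower (log2 difference -1.31, SE 0.214, adjusted p = 2.20e-04). Of 17 lysine demethylases 9 rose and 3 fell. Kdm5b, which removes methyl groups from lysine 4 of histone H3, stood at 6.13, 6.15 and 6.15 in the GFP samples and 7.84, 7.5 and 7.33 in the AML1/ETO samples and was 2.67-fold higher (log2 difference 1.42, SE 0.153, adjusted p = 4.26e-06). Kdm6a, which acts on lysine 27, rose 2.39-fold (log2 difference 1.26, SE 0.148, adjusted p = 9.94e-06). With the 18S covariate 7 of the 71 rose and 15 fell.

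Genes of lipid synthesis fell more often than they rose. Of 17 sterol synthesis enzymes 9 fell and none rose. Dhcr7, the last step to cholesterol, read 5.66, 5.88 and 6.08 with GFP and 3.76, 4.27 and 4.49 with AML1/ETO and was 3.25-fold lower (log2 difference -1.7, SE 0.191, adjusted p = 6.16e-06). The levels of Sqle, squalene epoxidase, were 6.22, 6.04 and 6.03 with GFP and 4.83, 4.4 and 5.03 with AML1/ETO, a fall of 2.54-fold (log2 difference -1.34, SE 0.176, adjusted p = 2.91e-05). For Abca1, which exports cholesterol, the GFP arrays gave 0.78, 0.99 and 1.18 and the AML1/ETO arrays 3.91, 3.3 and 2.88, a rise of at least 2.5-fold (log2 difference 2.38, SE 0.24, adjusted p = 2.17e-06). Fatty acid synthesis had 11 of 28 genes lower (39.3%, against 29.9% of genes above the bound), 2 higher and 15 not called, among them the elongase Elovl6, 2.23-fold lower (log2 difference -1.16, SE 0.142, adjusted p = 1.49e-05), and the rate-limiting carboxylase Acaca, 2.13-fold lower (log2 difference -1.09, SE 0.151, adjusted p = 4.80e-05). Acyl-CoA synthetases went both ways: Acsl3 was at least 2.69-fold lower (log2 difference -2.16, SE 0.191, adjusted p = 5.70e-07) and Acsl4 at least 3.14-fold higher (log2 difference 1.87, SE 0.17, adjusted p = 7.88e-07). Of the fatty acid oxidation and lipid droplet list 9 of 34 rose and 5 fell, and 3 rose with the 18S covariate. Lpl, lipoprotein lipase, stood at 5.88, 5.85 and 5.82 in the GFP samples and 8.35, 8.19 and 7.52 in the AML1/ETO samples and was 4.49-fold higher (log2 difference 2.17, SE 0.209, adjusted p = 1.32e-06). Plin2, a coat protein of lipid droplets, rose 2.68-fold (log2 difference 1.42, SE 0.164, adjusted p = 8.23e-06).

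The enzymes of gangliosides, sialic acid-bearing lipids of the cell surface, moved against each other along 1 pathway. St3gal5, which makes the first simple ganglioside GM3, read 3.32, 3.14 and 3.23 with GFP and 6.25, 6.01 and 5.83 with AML1/ETO and was 6.96-fold higher (log2 difference 2.8, SE 0.14, adjusted p = 1.47e-09). The levels of B4galnt1, which extends it to the complex series, were 4.37, 4.11 and 4.37 with GFP and 2.07, 2.45 and 2.26 with AML1/ETO, a fall of 4.06-fold (log2 difference -2.02, SE 0.173, adjusted p = 4.38e-07). For St8sia1, which adds a further sialic acid, the GFP arrays gave 4.04, 4.25 and 4.12 and the AML1/ETO arrays 2.33, 1.94 and 1.49, a fall of at least 4-fold (log2 difference -2.22, SE 0.206, adjusted p = 9.11e-07). The first gene was thus higher on all AML1/ETO arrays and the next steps lower on all. Ganglioside-degrading hydrolases Hexa, 2.09-fold (log2 difference 1.06, SE 0.134, adjusted p = 1.96e-05), and Glb1, 2.11-fold (log2 difference 1.08, SE 0.145, adjusted p = 3.76e-05), rose, and of the 42 sphingolipid genes 13 rose and 7 fell. The arrays labelled W692A lay between the groups at St3gal5, with a mean of 4.78 ± 0.177 (SD, n = 4), and AML1/ETO minus labelled W692A was 1.24, adjusted p = 8.27e-06. For St8sia1 that difference was 0.47, adjusted p = 0.106. Among 31 eicosanoid genes 7 rose and 6 fell, and 4 rose with dim values raised to the bound. Ptger4, a prostaglandin E receptor, stood at 6.39, 6.58 and 6.26 in the GFP samples and 8.98, 9.09 and 8.82 in the AML1/ETO samples and was 5.88-fold higher (log2 difference 2.55, SE 0.132, adjusted p = 2.09e-09). The prostacyclin receptor Ptgir rose 3.71-fold (log2 difference 1.89, SE 0.163, adjusted p = 4.48e-07) and the leukotriene B4 receptor Ltb4r1 3.04-fold (log2 difference 1.6, SE 0.181, adjusted p = 6.52e-06). Enzymes were called in both directions. The lipoxygenase Alox5 was 3.17-fold lower (log2 difference -1.66, SE 0.243, adjusted p = 7.68e-05), the hydrolase Lta4h 2.25-fold lower (log2 difference -1.17, SE 0.166, adjusted p = 6.03e-05) and the phospholipase Pla2g4a 2.22-fold lower (log2 difference -1.15, SE 0.205, adjusted p = 4.73e-04). The lipoxygenase Alox12 was at least 1.34-fold higher and the phospholipase Pla2g7 at least 2.8-fold higher. Ptges, a prostaglandin E synthase, was called higher with all 6 arrays below the bound.

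Genes of sugar use rose more often than they fell. Of 33 glycolysis and gluconeogenesis genes 11 rose (33.3%) and 2 fell. Slc2a1, the glucose carrier GLUT1, read 6.39, 6.76 and 6.34 with GFP and 8.08, 8.23 and 8.1 with AML1/ETO and was 3.11-fold higher (log2 difference 1.64, SE 0.134, adjusted p = 2.81e-07). Hexokinase Hk1 was 2.54-fold higher (log2 difference 1.34, SE 0.124, adjusted p = 8.78e-07). The levels of Slc16a1, a lactate carrier, were 5.88, 6.35 and 5.93 with GFP and 3.47, 3.77 and 4.21 with AML1/ETO, a fall of 4.7-fold (log2 difference -2.23, SE 0.187, adjusted p = 3.51e-07), and of 17 glycolytic enzymes 6 rose and 1, Ldhb, fell. For Mt2, a metal-binding metallothionein, the GFP arrays gave 5.05, 4.68 and 4.51 and the AML1/ETO arrays 8.61, 8.03 and 8.05, a rise of 11.2-fold (log2 difference 3.48, SE 0.17, adjusted p = 1.18e-09). Its relative Mt1 rose 2.83-fold (log2 difference 1.5, SE 0.117, adjusted p = 1.72e-07), the zinc importer Slc39a4 5-fold (log2 difference 2.32, SE 0.115, adjusted p = 1.39e-09), and the copper pump Atp7a 8.07-fold (log2 difference 3.01, SE 0.134, adjusted p = 4.04e-10). The iron genes Hfe, above, and Tfr2, 3-fold (log2 difference -1.59, SE 0.167, adjusted p = 3.27e-06), fell. Of 52 metal genes 12 rose and 13 fell, and 6 rose with the 18S covariate. In oxidative stress defence 12 of 42 rose and 9 fell, with 5 lower without GFP replicate 2 and 3 lower with the 18S covariate. Among them were Prdx4, a peroxiredoxin of the endoplasmic reticulum, 3.97-fold higher (log2 difference 1.99, SE 0.132, adjusted p = 2.98e-08), Gstt1 3.7-fold higher (log2 difference 1.89, SE 0.118, adjusted p = 1.49e-08) and Gsto1 2.63-fold lower (log2 difference -1.4, SE 0.147, adjusted p = 3.24e-06).

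Interleukin and receptor genes rose more often than they fell. Of 80 interleukin and receptor genes 19 rose (23.8%) and 7 fell, and 4 fell with the 18S covariate. Il15, which supports NK and memory T cells, stood at 1.11, 1.61 and 1.59 in the GFP samples and 5.59, 5.71 and 5.72 in the AML1/ETO samples and was at least 12.4-fold higher (log2 difference 4.23, SE 0.171, adjusted p = 1.30e-10). Il1b, the inflammatory cytokine, read 3.65, 3.36 and 3.28 with GFP and 7.43, 6.31 and 5.64 with AML1/ETO and was 8.19-fold higher (log2 difference 3.03, SE 0.361, adjusted p = 1.11e-05). The levels of Tslp, a cytokine of epithelia, were 1.73, 1.54 and 1.24 with GFP and 5.11, 3.71 and 4.16 with AML1/ETO, a rise of at least 4.88-fold (log2 difference 2.83, SE 0.265, adjusted p = 1.00e-06). The AML1/ETO arrays spread over more than 1 log2 unit for Il1b and Tslp and stayed above the GFP arrays. Receptor genes were among those that fell: Il1r1, given above, Il27ra, 3.09-fold lower (log2 difference -1.63, SE 0.128, adjusted p = 1.85e-07), and Il18rap, 2.52-fold lower (log2 difference -1.33, SE 0.141, adjusted p = 3.40e-06). Of 56 chemokine and receptor genes 11 rose (19.6%) and 6 fell (10.7%), against 12.9% and 15.8% of all genes. Without GFP replicate 3, 3 were lower, and 2 were lower with the Gapdh covariate or with dim values raised to the bound. Of the rises, Ccl5, Cxcl10 and Cxcl11 are also in the interferon list, and Cxcr2, Pf4 and Ppbp in marker lists. Outside those lists the rises were Ccl2, Cxcl1, Cxcl2, Cxcl3 and Cxcl5. Of the falls, Cx3cr1 is a marker, and Ackr1, Ackr4, Ccl24, Ccl9 and Ccr7 are not. For Cxcl5, another neutrophil attractant, the GFP arrays gave 1.25, 0.89 and 0.89 and the AML1/ETO arrays 6.57, 5.62 and 5.88, a rise of at least 15.8-fold (log2 difference 5.01, SE 0.299, adjusted p = 9.25e-09). The mean of the arrays labelled W692A there was 1.35 ± 0.623 (SD, n = 4), below the bound, and AML1/ETO exceeded it by 4.68, adjusted p = 3.29e-08.

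Of 40 genes for Toll-like receptors, inflammasomes and their adaptors 15 rose (37.5%) and 4 fell. Nlrp3, the sensor of an inflammasome, stood at 2.43, 2.45 and 2.41 in the GFP samples and 5.07, 4.99 and 4.88 in the AML1/ETO samples and was 5.83-fold higher (log2 difference 2.54, SE 0.13, adjusted p = 1.89e-09). Tlr2, a receptor of bacterial lipoproteins, read 3.5, 2.97 and 3.24 with GFP and 5.49, 5.55 and 4.92 with AML1/ETO and was 4.24-fold higher (log2 difference 2.08, SE 0.182, adjusted p = 5.26e-07). Nlrc3 read 3.45, 3.49 and 2.82 with GFP and 5.36, 5.6 and 5.0 with AML1/ETO (log2 difference 2.07, SE 0.195, adjusted p = 1.08e-06), a rise of 4.2-fold. Of the 11 Toll-like receptors 6 rose and none fell. The adaptor Tirap, which serves TLR2 and TLR4, was at least 2.13-fold lower (log2 difference -2.08, SE 0.207, adjusted p = 1.91e-06). One of the 6, Tlr3, is also in the interferon list, and Cd14, of the 15, is a monocyte marker. Receptors with immunoglobulin domains moved both ways, 8 higher and 7 lower of 35. Cd200r3, Cd200r4 and Treml1 of the 8 are also in marker lists. The levels of Cd200r1, an inhibitory receptor, were 1.4, 1.67 and 1.3 with GFP and 5.15, 4.69 and 4.92 with AML1/ETO, a rise of at least 7.35-fold (log2 difference 3.46, SE 0.213, adjusted p = 1.30e-08). For Fcgr3, an activating IgG receptor, the GFP arrays gave 4.06, 4.08 and 4.28 and the AML1/ETO arrays 6.86, 6.53 and 6.96, a rise of 6.27-fold (log2 difference 2.65, SE 0.171, adjusted p = 2.23e-08). Cd300a, another inhibitory receptor, stood at 3.81, 4.57 and 3.81 in the GFP samples and 1.59, 1.55 and 1.81 in the AML1/ETO samples and was at least 4.06-fold lower (log2 difference -2.41, SE 0.178, adjusted p = 9.50e-08). Treml2 was 5.37-fold lower (log2 difference -2.43, SE 0.2, adjusted p = 3.05e-07).

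Complement and clotting genes had 14 of 50 members higher and 2 lower. F13a1, F2r and Procr of the 14 are also in marker lists. Outside the marker lists, the largest rises were the 3 surface genes described first, Cd59a, Cd55 and C3ar1. Only 16 of the 50 had a group mean above the bound. Protease inhibitors of the serpin and cystatin families had 9 of 53 higher and 4 lower. Serpinb1a, an inhibitor of neutrophil elastase and its relatives, read 7.52, 7.5 and 7.79 with GFP and 10.58, 10.39 and 10.64 with AML1/ETO and was 7.63-fold higher (log2 difference 2.93, SE 0.131, adjusted p = 4.59e-10). Serpinc1, antithrombin, was at least 3.62-fold lower (log2 difference -1.89, SE 0.161, adjusted p = 4.34e-07). Of the 8 Gimap GTPases of lymphocytes 6 rose and none fell, Gimap8 6.25-fold (log2 difference 2.64, SE 0.173, adjusted p = 2.56e-08) and Gimap9 3.96-fold (log2 difference 1.99, SE 0.227, adjusted p = 7.56e-06). Ms4a6d read 3.89, 4.14 and 4.38 with GFP and 8.2, 7.86 and 8.13 with AML1/ETO (log2 difference 3.93, SE 0.149, adjusted p = 7.35e-11), a rise of 15.2-fold in a membrane protein of myeloid cells. Icos read 3.44, 3.01 and 2.64 with GFP and 6.13, 5.51 and 5.5 with AML1/ETO (log2 difference 2.69, SE 0.217, adjusted p = 2.47e-07), a rise of 6.44-fold in a T cell costimulator. Icam1 read 5.29, 4.94 and 5.29 with GFP and 7.67, 7.73 and 7.39 with AML1/ETO (log2 difference 2.43, SE 0.154, adjusted p = 1.73e-08), a rise of 5.38-fold in the ligand of the leukocyte integrins, whose beta chain Itgb2 fell.

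Several matrix protease and junction genes that were below the bound with GFP rose. Of 72 metalloproteinase and ADAM genes 16 rose (22.2%) and 2 fell, and 5 of 15 Adamts genes were among the rises. With dim values raised to the bound 10 of the 72 rose. The levels of Adamts9, which cleaves proteoglycans, were 0.96, 0.94 and 1.12 with GFP and 4.49, 4.02 and 4.66 with AML1/ETO, a rise of at least 5.1-fold (log2 difference 3.39, SE 0.164, adjusted p = 1.04e-09). Adamts5 read 0.68, 0.69 and 0.91 with GFP and 4.25, 3.75 and 4.34 with AML1/ETO (log2 difference 3.35, SE 0.181, adjusted p = 3.17e-09), a rise of at least 4.21-fold. All GFP values of both were below the bound. For Cdh2, N-cadherin, the GFP arrays gave 1.3, 0.84 and 1.23 and the AML1/ETO arrays 5.04, 5.15 and 5.91, a rise of at least 10-fold (log2 difference 4.24, SE 0.215, adjusted p = 1.73e-09). Cadherins, claudins and junction genes as a whole were called less often than all genes, 10 higher and 4 lower of 120, with 13 above the bound. With the 18S covariate, and also with dim values raised to the bound, 5 were higher. Of 75 guidance genes 14 rose (18.7%) and 7 fell (9.3%), against 12.9% and 15.8% of all genes. Plxdc2 read 5.11, 5.01 and 5.37 with GFP and 7.46, 7.47 and 7.61 with AML1/ETO (log2 difference 2.35, SE 0.126, adjusted p = 2.95e-09), a rise of 5.1-fold. Nrp2, a receptor of semaphorins and of VEGFC, stood at 4.87, 4.36 and 4.46 in the GFP samples and 7.7, 6.85 and 6.07 in the AML1/ETO samples and was 4.97-fold higher (log2 difference 2.31, SE 0.328, adjusted p = 6.00e-05). Efna5, an ephrin, was at least 4.21-fold lower (log2 difference -2.4, SE 0.194, adjusted p = 2.60e-07), and Sema4d 3.6-fold lower (log2 difference -1.85, SE 0.161, adjusted p = 5.05e-07).

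Cytoskeleton genes moved both ways. Lsp1, a leukocyte actin-binding protein, read 6.2, 5.72 and 6.04 with GFP and 3.9, 3.43 and 3.67 with AML1/ETO and was 5-fold lower (log2 difference -2.32, SE 0.199, adjusted p = 4.34e-07). Lcp1, leukocyte plastin, was 2.63-fold lower (log2 difference -1.4, SE 0.128, adjusted p = 8.51e-07). The levels of Enah, which extends actin filaments at cell edges, were 5.64, 6.32 and 6.19 with GFP and 9.39, 9.46 and 9.54 with AML1/ETO, a rise of 10.7-fold (log2 difference 3.41, SE 0.157, adjusted p = 5.97e-10). For Cald1, caldesmon of smooth muscle and fibroblasts, the GFP arrays gave 0.41, 0.52 and 0.37 and the AML1/ETO arrays 4.12, 3.51 and 3.88, a rise of at least 3.47-fold (log2 difference 3.4, SE 0.142, adjusted p = 1.82e-10). Its mean on the arrays labelled W692A was 0.43 ± 0.063 (SD, n = 4), and AML1/ETO minus labelled W692A was 3.41, adjusted p = 7.27e-10. In all 19 of 100 actin genes rose and 14 fell, and 9 fell without GFP replicate 1. The alpha tubulin Tuba1a, bright in both groups, rose 2.49-fold (log2 difference 1.32, SE 0.119, adjusted p = 7.12e-07).

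Signalling genes were called in both directions. Phosphoinositide signalling had 25 of 83 genes higher (30.1%) and 12 lower. Sgk1, a kinase downstream of phosphoinositide 3-kinase, stood at 2.73, 3.48 and 3.45 in the GFP samples and 6.49, 6.63 and 6.47 in the AML1/ETO samples and was 9.9-fold higher (log2 difference 3.31, SE 0.174, adjusted p = 2.42e-09). Itpr2, a calcium release channel, read 4.16, 3.39 and 3.75 with GFP and 5.85, 5.87 and 6.32 with AML1/ETO and was 4.73-fold higher (log2 difference 2.24, SE 0.179, adjusted p = 2.13e-07). Plcg2, a phospholipase of immune receptors, was 2.27-fold lower (log2 difference -1.18, SE 0.17, adjusted p = 6.83e-05). Cyclic nucleotide signalling had 18 of 67 higher (26.9%) and 8 lower, with 5 lower without AML1/ETO replicate 2 and 4 lower with the 18S covariate. The levels of Pde2a, which degrades cyclic AMP and GMP, were 7.07, 7.11 and 7.55 with GFP and 9.58, 9.66 and 9.54 with AML1/ETO, a rise of 5.1-fold (log2 difference 2.35, SE 0.145, adjusted p = 1.30e-08). For Crem, a transcription factor of the cyclic AMP response, the GFP arrays gave 4.06, 3.34 and 4.0 and the AML1/ETO arrays 6.37, 5.95 and 5.66, a rise of 4.57-fold (log2 difference 2.19, SE 0.24, adjusted p = 5.02e-06). None of the 10 adenylyl cyclases was called by limma, and 1 was lower at an unadjusted p under 0.05, while 7 of 21 phosphodiesterases rose and 2 fell. For Crem the mean of the arrays labelled W692A was 3.63 ± 0.389 (SD, n = 4), near the GFP level, and AML1/ETO was higher by 2.36, adjusted p = 3.28e-06.

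Among G protein genes 16 of 66 rose (24.2%) and 9 fell (13.6%), against 12.9% and 15.8% of all genes. Rgs7bp read 2.28, 1.96 and 1.88 with GFP and 4.89, 4.43 and 4.73 with AML1/ETO (log2 difference 2.65, SE 0.15, adjusted p = 5.24e-09), a rise of at least 5.92-fold in a membrane anchor of RGS proteins, and Rgs1 rose 4-fold (log2 difference 2.0, SE 0.203, adjusted p = 2.36e-06). Of 161 G protein-coupled receptors 17 rose and 17 fell, 10.6% each and below the shares of all genes, and 10 fell with the Gapdh covariate. Of the 161, 42 had a group mean above the bound, and 119 were below it on all 6 arrays. Lpar6, a lysophosphatidic acid receptor, stood at 4.88, 4.88 and 4.86 in the GFP samples and 7.17, 7.0 and 7.26 in the AML1/ETO samples and was 4.82-fold higher (log2 difference 2.27, SE 0.119, adjusted p = 2.40e-09). Gpr65, a proton sensor, read 4.16, 4.35 and 3.96 with GFP and 1.79, 1.72 and 1.94 with AML1/ETO and was at least 4.33-fold lower (log2 difference -2.34, SE 0.146, adjusted p = 1.49e-08). The levels of Adgrl4, an adhesion receptor of endothelium, were 4.25, 3.83 and 3.47 with GFP and 6.58, 6.28 and 5.8 with AML1/ETO, a rise of 5.18-fold (log2 difference 2.37, SE 0.29, adjusted p = 1.46e-05). Its mean on the arrays labelled W692A was 6.99 ± 0.577 (SD, n = 4), not called different from AML1/ETO (-0.77, adjusted p = 0.0599).

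Of 46 protein tyrosine phosphatases 14 fell (30.4%) and 7 rose (15.2%), against 15.8% lower and 12.9% higher of all genes. Of the 46, 28 had a group mean above the bound, where 29.9% of genes fell and 22.7% rose. In the fit with the Gapdh covariate 9 were lower. For Ptpn22, which damps lymphocyte receptor signals, the GFP arrays gave 3.6, 3.58 and 3.46 and the AML1/ETO arrays 0.69, 0.95 and 0.78, a fall of at least 2.84-fold (log2 difference -2.74, SE 0.128, adjusted p = 7.06e-10). Ptprf read 2.38, 2.17 and 3.01 with GFP and 5.56, 5.64 and 5.06 with AML1/ETO (log2 difference 2.9, SE 0.22, adjusted p = 1.30e-07), a rise of 7.45-fold. Ptprb, of endothelium, was at least 6.17-fold higher (log2 difference 2.83, SE 0.17, adjusted p = 1.00e-08). Adaptors and non-receptor kinases had 15 higher and 14 lower of 78, and 9 were lower with the 18S covariate. Gab1, a docking protein of growth factor receptors, stood at 1.99, 1.79 and 2.32 in the GFP samples and 4.73, 4.9 and 4.18 in the AML1/ETO samples and was at least 5.53-fold higher (log2 difference 2.57, SE 0.201, adjusted p = 1.79e-07). Gab2 rose 2.77-fold (log2 difference 1.47, SE 0.12, adjusted p = 2.80e-07). Matk, an inhibitor of Src kinases, read 5.37, 4.9 and 5.26 with GFP and 2.76, 3.22 and 2.97 with AML1/ETO and was 4.57-fold lower (log2 difference -2.19, SE 0.17, adjusted p = 1.59e-07). Dok2, a brake on Ras signalling, was 3.99-fold lower (log2 difference -2.0, SE 0.196, adjusted p = 1.64e-06).

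Smaller families carried single large changes. The levels of Bcl2, which protects from cell death, were 5.47, 5.62 and 5.23 with GFP and 3.5, 3.21 and 3.69 with AML1/ETO, a fall of 3.93-fold (log2 difference -1.98, SE 0.145, adjusted p = 8.83e-08). For Ncf1, a subunit of the phagocyte NADPH oxidase, the GFP arrays gave 7.74, 7.44 and 7.73 and the AML1/ETO arrays 6.0, 5.23 and 5.79, a fall of 3.9-fold (log2 difference -1.96, SE 0.177, adjusted p = 7.25e-07), and Ncf4 of the same enzyme was 2.69-fold lower (log2 difference -1.43, SE 0.184, adjusted p = 2.34e-05). Odc1, which makes polyamines, stood at 8.02, 7.71 and 7.4 in the GFP samples and 9.6, 9.27 and 8.95 in the AML1/ETO samples and was 2.96-fold higher (log2 difference 1.56, SE 0.201, adjusted p = 2.31e-05), where its activator Azin2 fell. Plagl1, an imprinted zinc finger gene, read 3.06, 2.73 and 2.19 with GFP and 6.4, 5.51 and 4.92 with AML1/ETO and was 7.74-fold higher (log2 difference 2.95, SE 0.355, adjusted p = 1.23e-05), and of 34 imprinted growth genes 8 rose and 5 fell. The levels of Dbp, an output gene of the circadian clock, were 5.85, 5.93 and 5.94 with GFP and 7.75, 8.05 and 7.3 with AML1/ETO, a rise of 3.47-fold (log2 difference 1.79, SE 0.161, adjusted p = 6.63e-07), and of 22 clock genes 5 rose and 4 fell. The RNA-binding proteins Zfp36l1 and Zfp36l2, relatives that destabilise messenger RNA, went apart: 6.47, 6.56 and 6.11 with GFP and 7.69, 7.52 and 7.4 with AML1/ETO for the first, 2.23-fold higher (log2 difference 1.16, SE 0.142, adjusted p = 1.48e-05), and 7.75, 8.04 and 7.68 with GFP and 5.48, 5.94 and 6.02 with AML1/ETO for the second, 4.03-fold lower (log2 difference -2.01, SE 0.153, adjusted p = 1.30e-07). The AML1/ETO arrays were on opposite sides of the GFP arrays for this pair.

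For Anxa6, a calcium-dependent membrane-binding annexin, the GFP arrays gave 2.73, 2.52 and 2.73 and the AML1/ETO arrays 5.64, 5.83 and 5.72, a rise of 8.39-fold (log2 difference 3.07, SE 0.142, adjusted p = 6.38e-10). S100a4 read 4.94, 5.33 and 5.19 with GFP and 3.13, 2.8 and 2.27 with AML1/ETO (log2 difference -2.42, SE 0.227, adjusted p = 1.00e-06), a fall of 5.35-fold in a calcium-binding protein, while S100a10 rose 4.52-fold (log2 difference 2.18, SE 0.144, adjusted p = 2.76e-08). Lgals1, galectin 1, stood at 8.34, 8.31 and 8.55 in the GFP samples and 7.25, 6.9 and 6.81 in the AML1/ETO samples and was 2.66-fold lower (log2 difference -1.41, SE 0.132, adjusted p = 9.60e-07). Of 33 S100, annexin and galectin genes 9 rose and 7 fell, and 4 fell with dim values raised to the bound. Tetraspanins, organisers of membrane domains, were split evenly with 8 higher and 7 lower of 28. Cd53 read 6.93, 6.37 and 6.81 with GFP and 9.25, 9.1 and 9.09 with AML1/ETO (log2 difference 2.44, SE 0.148, adjusted p = 1.02e-08), a rise of 5.44-fold. Cd82 was 2.78-fold lower (log2 difference -1.48, SE 0.19, adjusted p = 2.40e-05). Trim24, a chromatin reader of the tripartite motif family, read 1.47, 2.29 and 1.35 with GFP and 4.09, 3.91 and 3.63 with AML1/ETO and was at least 3.37-fold higher (log2 difference 2.17, SE 0.21, adjusted p = 1.40e-06). Of 58 tripartite motif genes 14 rose and 9 fell, and 4 fell with the 18S covariate. Trim21, Trim25, Trim30a and Trim34a of the 14 are also in the interferon list.

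Counting both directions, 28.6% of all genes were called. Ubiquitin-specific proteases (36.5%), RAS and RAF genes with their regulators (32.4%) and retinoid, aldehyde and steroid genes (31.5%) were called more often. The families below were called less often. Solute carriers had 43 of 353 higher and 46 lower, ion channels 15 and 9 of 195, zinc finger genes of the Zfp series 26 and 55 of 329, cytochrome P450 genes 7 and 2 of 77, homeobox genes outside the Hox clusters 6 and 5 of 90, and receptor tyrosine kinases with their ligands 11 and 4 of 84. Of these, 35 channel, 13 P450, 17 homeobox and 18 receptor tyrosine kinase or ligand genes had a group mean above the bound. Of all genes above it 52.6% were called. With the 18S covariate solute carriers had 25 higher and 31 lower, ion channels 9 and 6, and the Zfp series 12 and 30.

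**Figure D5:**
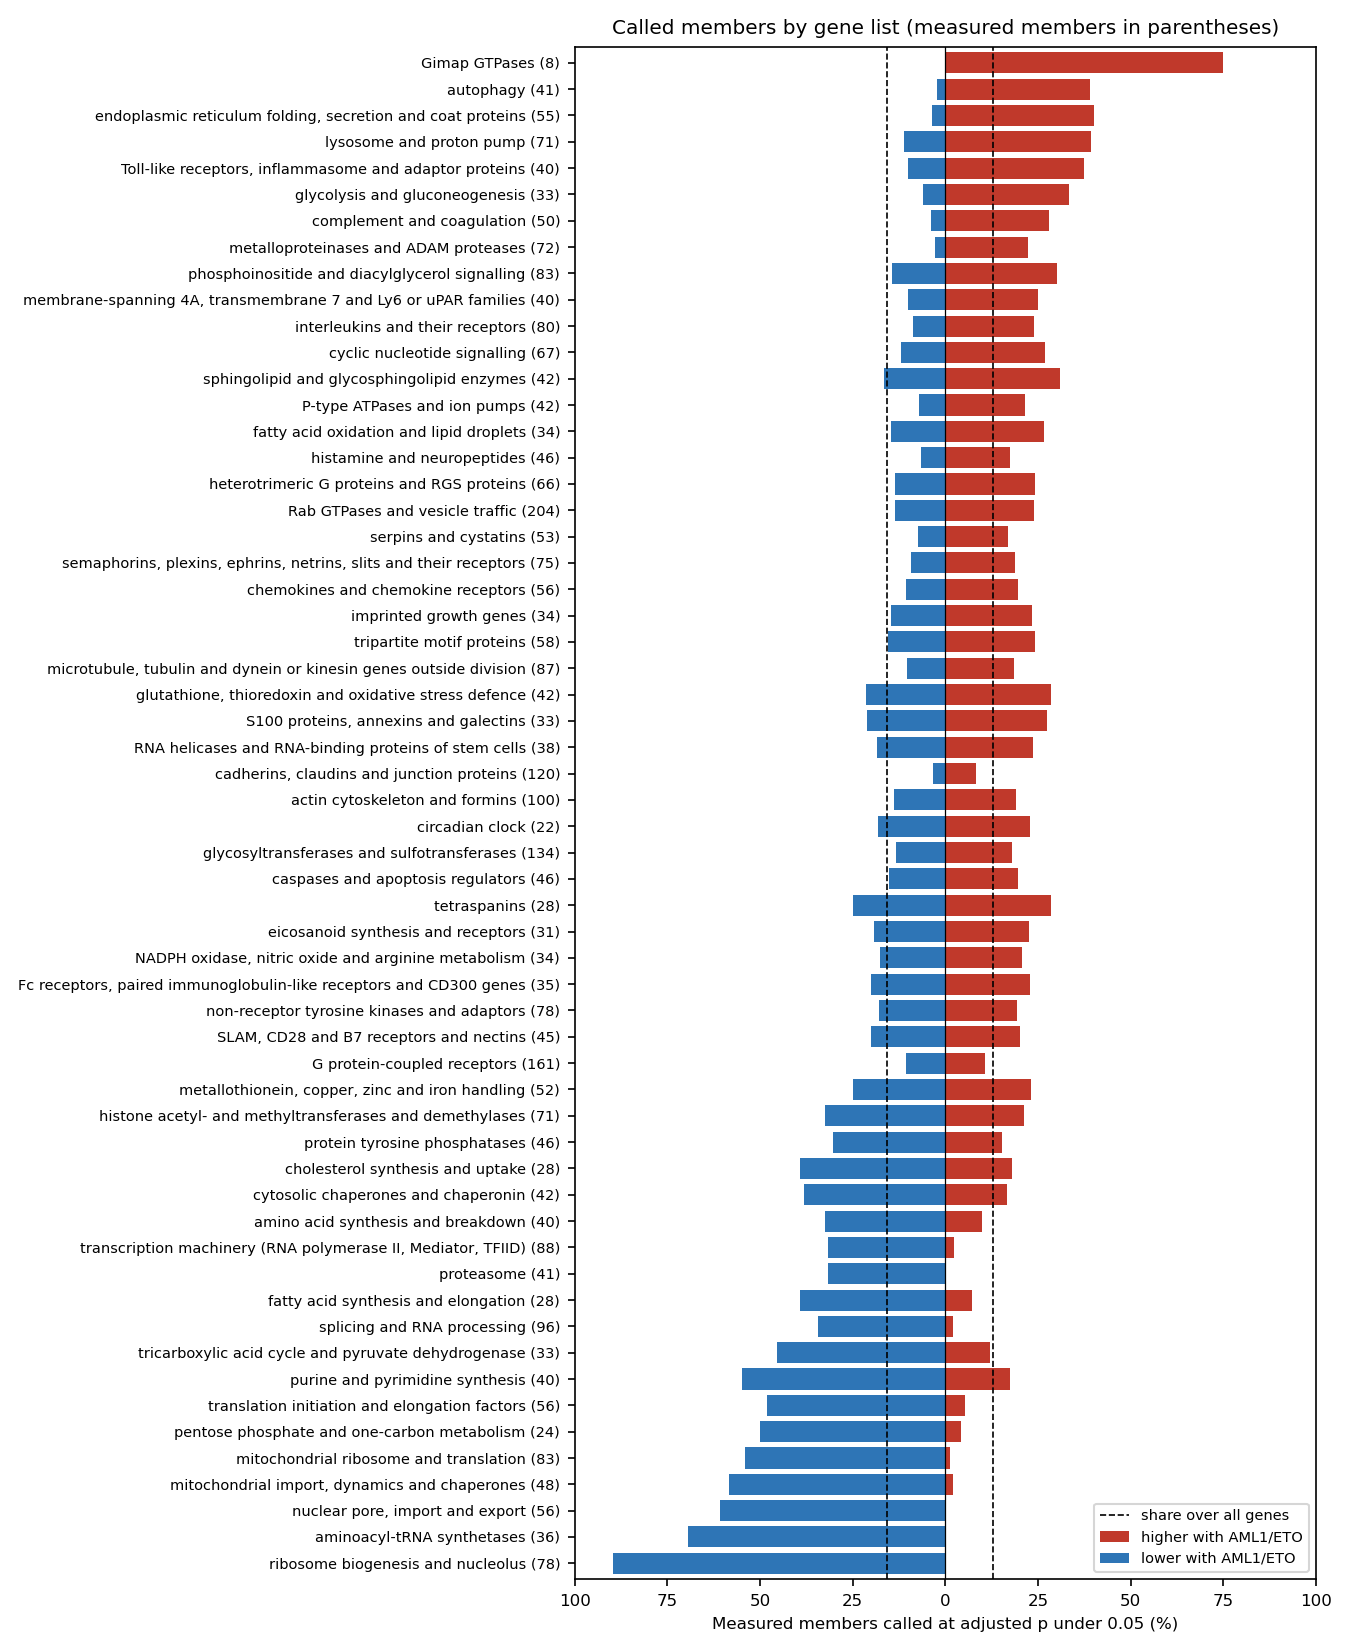
Share of the measured members of 58 gene lists called higher (red, to the right) or lower (blue, to the left) with AML1/ETO, in percent, with the number of measured members in parentheses and dashed lines at the shares of all genes (12.9% higher and 15.8% lower). Lists are ordered by the difference of the shares, from the Gimap and autophagy lists at the top to tRNA synthetases and ribosome biogenesis at the bottom.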

How the data were processed

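RNA of sorted cells was amplified and hybridised to Affymetrix arrays of 45101 probe sets, per the labels' protocols. The authors deposited log2 values made with RMA, per the submitters' processing notes. RMA gives all arrays one distribution, so that changes are relative to it, and a change in total RNA per cell is not seen. Of the probe sets, 34945 mapped to 1 mouse gene (34741 symbols updated through RefSeq GRCm38.p6, 204 kept), and each of 18193 genes was represented by its probe set of highest average level on the 10 arrays. All 3 groups entered 1 fit with limma 3.58.1 in R 4.3.3 (lmFit and eBayes, 7 residual degrees of freedom), with Benjamini-Hochberg adjustment over all genes and a threshold of 0.05. Every adjusted p is from that fit. On simulated data with independent noise, 100 of 18193 genes were changed 2-fold and 100 others 1.5-fold. The fit recovered 87% of the 2-fold and 33% of the 1.5-fold changes with 4 false calls. Far fewer genes were changed there than were called here, so these figures do not measure recovery or false calls in this comparison. Array data have no read depth: the number of arrays limits the precision.

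The comparison and the gene lists were chosen with earlier results of these data known. Named genes were called, did not overlap between the 3 and 3 arrays and were outside the interferon, cell cycle and marker lists: the 20 largest rises and falls, up to 3 in each direction per list, and members of complexes described whole. Members named for a small count or beside a group's exceptions were chosen after their values were seen. Alternatives were other normalizations, filters, probe set choices, variance models, covariates, the replicate block and leaving out each array. A gene list that met the rule for description is not reported here.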

Additional observations from a re-analysis of the deposited data

Results flagged for a closer look

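Among the 40 largest changes, 38 had an array labelled W692A above the background bound, and the 4 arrays labelled W692A were examined for 1 array far from the other 3. Such flags arise by chance in about 1 in 20 groups, and 3 were found. The labelled W692A value of 3.63 for Car8 lay above the nearest at 3.04. For Plod2 the highest labelled W692A array read 4.91 and the nearest 4.52. For Vegfc the lowest read 6.51 and the nearest 6.78.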

How the results depend on the processing

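All 40 largest changes kept their direction and call under every alternative in which they were tested (840 of 840 pairs of gene and setting), and of 6928 such pairs over 330 genes 6756 did, 170 lost the call and 2 reversed: Mrps21 at -0.020 and Ccnt2 at -0.033, with probe sets of a gene averaged. The 5207 genes called between AML1/ETO and GFP became 3358 with the 18S covariate, and the 4879 outside the lists became 3091. The 3765 called between AML1/ETO and the arrays labelled W692A became 2500 with it and 2485 with dim values raised to the bound. The 18S signal of GFP and AML1/ETO arrays did not overlap, so signal and group cannot be told apart in those calls. Leaving out 1 array gave 4477 to 5319 genes between AML1/ETO and GFP, 4174 to 4986 outside the lists and 2943 to 3777 between AML1/ETO and the arrays labelled W692A. Same-numbered samples did not deviate together (correlations 0.19, -0.056 and -0.064), so the numbers were not taken as pairs. With the replicate number as a block, 5272 genes were called between AML1/ETO and GFP, 4949 outside the lists and 3509 between AML1/ETO and the arrays labelled W692A. Subtracting array medians moved the median difference of all genes from -0.018 to -0.072. Signal near the background bound limits falls of dim genes.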
